A study of Mus musculus with 6 samples.

Results

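Shisa8 and 9 other genes for auxiliary subunits of the AMPA receptor were examined in cerebrum of wild-type (WT) mice and of Sgo1-/+ mice. The 10 genes were taken by symbol from the 38087 genes of the deposited table. They are Shisa8, Shisa6, Shisa7 and Shisa9 of the CKAMP (Shisa) family, the cornichon homologs Cnih2 and Cnih3, the transmembrane AMPA receptor regulatory proteins (TARPs) Cacng2, Cacng3 and Cacng8, and Gsg1l. Shisa8 is listed there under its older symbol AI848285. It was selected for its low counts in Sgo1-/+ in these same libraries, so its difference between the groups is given as a description, without a test. The other 9 genes were selected as auxiliary subunits of the same receptor. All 10 passed the filter on low counts.

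The samples were 3 WT and 3 Sgo1-/+ mice on the C57BL6 background, each aged 24 months, and no treatment is named for either group. Sgo1-/+ mice are haploinsufficient for Shugoshin-1, a protector of cohesin. RNA came from frozen cerebrum with cortex and hippocampus, from which the olfactory bulb, cerebellum and medulla were to be left out by the stated dissection. WT replicate 1 and Sgo1-/+ replicate 2 were male and the other mice female. WT libraries were sequenced in run 258 and Sgo1-/+ libraries in run 259, so that run and genotype cannot be told apart.

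Total estimated counts lay between 11123917 and 12505561 per library. Sgo1 itself had estimated counts of 0, 7 and 0 in WT and 4, 2 and 0 in Sgo1-/+, too few to check the genotype labels, since a count of 0 allows up to 3 counts. The Y-linked Ddx3y had 947 and 888 estimated counts in the 2 libraries labelled male and at most 6 in the others. WT replicate 1 stood apart in most regional marker lists, and Sgo1-/+ replicate 3 in the hippocampus list, given with Shisa6. In WT replicate 1 the summed level of 8 cerebellar granule cell markers was 1468 CPM (counts scaled to library size), against 81.0 to 166 in the other 5 libraries. The 7 Purkinje cell markers summed to 2864 CPM there, against 933 to 1214 elsewhere. The 11 medulla and brain stem markers summed to 359.7 CPM, against 3.24 to 7.57, and 7 of them were at 0 in at least 1 of the other libraries. In the same library 8 striatum markers summed to 194 CPM, against 1024 to 2316, and 9 cortex markers to 314, against 614 to 751. General neuron markers (5 genes) summed to 4846 CPM, against 5775 to 7624, so each library held abundant neuronal RNA. Every member is therefore given with WT replicate 1 and without it.

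AMPA receptors are the glutamate-gated channels that carry most fast excitatory transmission in the brain. Their pore is built from the subunits Gria1 to Gria4, and auxiliary subunits bind to it, set how fast the channel closes and desensitizes, and help to bring it to the synapse. TARPs anchor the receptor at the postsynaptic scaffold. Cornichons act as export chaperones of the receptor and slow its deactivation, CKAMPs shape its desensitization, and Gsg1l, a relative of the claudins, reduces its current. Brain regions use different sets of these proteins. Cacng2 (stargazin) is best known from cerebellar granule cells and Cacng8 from the hippocampus.

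Shisa8 (ENSMUSG00000096883) lies on the minus strand of chromosome 15 of mm10, from 82206952 to 82212815 in the deposited table, and encodes a protein in 5 merged exons. The stretch in front of its RefSeq start, chr15:82212816-82213065 on the minus strand of GRCm38.p6, is shown because Shisa8 had the largest fitted difference of the 10 genes. Capitals mark matches to the GC box GGGCGG on either strand, of which the last pair share bases.
Shisa8 promoter: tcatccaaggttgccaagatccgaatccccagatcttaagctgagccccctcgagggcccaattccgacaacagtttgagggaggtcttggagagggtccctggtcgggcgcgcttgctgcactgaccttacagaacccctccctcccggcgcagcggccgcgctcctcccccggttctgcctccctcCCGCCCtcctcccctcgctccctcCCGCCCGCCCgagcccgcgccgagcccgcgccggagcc
The 3 matches begin at bases 189, 213 and 217, counted from the 5′ end. A GC box was found in 32.7% of 32851 promoter windows of this length. RefSeq promoters of 7 of the 10 genes were matched. In these windows Cnih2 also held 3 GC boxes, Shisa7 and Cnih3 held 1, and Cacng2, Cacng3 and Cacng8 held none. The Cacng2 window, chr15:78119281-78119530, lies in front of its RefSeq start but inside the limits of that gene in the deposited table. The GC content was 69.6% for Shisa8 and ran from 48% for Cacng8 to 76% for Cnih3, with a median of 52.4% over all windows. No TATA box (TATAAA, 12.4% of windows) and no cyclic AMP response element (TGACGTCA, 1.55% of windows) was found in these letters for any of the 7.

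The other members are protein-coding genes spread over the genome, at mm10 limits from the deposited table. Shisa6 is on chr11:66211725-66525964, Shisa9 on chr16:11984581-12267803, Cnih2 on chr19:5092871-5098418, Cnih3 on chr1:181352628-181460641 and Cacng2 on chr15:77991748-78120028. Chromosome 7 holds Shisa7 (chr7:4825552-4844696), Cacng8 (chr7:3394117-3415605), Cacng3 (chr7:122671744-122769391) and Gsg1l (chr7:125878419-126082411).

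Shisa8 was lower in every Sgo1-/+ library than in any WT library. Its normalized counts (estimated counts rounded and scaled to a common library size) in WT were 180 (replicate 1), 249.5 (replicate 2) and 154 (replicate 3), and in Sgo1-/+ 88.4 (replicate 1), 35.5 (replicate 2) and 25.6 (replicate 3). The groups did not overlap, and Sgo1-/+ replicate 1 was the highest of its group. The WT libraries averaged 195 ± 49.3 and the Sgo1-/+ libraries 49.8 ± 33.8 (SD, n = 3 each). The fitted log2 fold change for Sgo1-/+ against WT was −1.96 (SE 0.466), or 3.90-fold lower. Across all 16337 tested genes, 3.57% had every Sgo1-/+ library below every WT library, 1.42% were at least 2-fold lower and 0.612% at least 2-fold higher in Sgo1-/+ (without WT replicate 1, 1.17 and 1.2%). Shisa8 was chosen on this contrast, so nothing is read from these shares. Leaving out WT replicate 1 gave −2.01 (SE 0.481), over means of 202 and 49.8. Without Sgo1-/+ replicate 1 it was −2.67.

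Markers of the olfactory bulb also varied between the libraries. The summed level of 10 such markers in WT was 77.3 CPM (replicate 1), 295 (replicate 2) and 237.5 (replicate 3), and in Sgo1-/+ it was 172 (replicate 1), 71.9 (replicate 2) and 49.6 (replicate 3), so the groups overlapped. Single markers differed in their order: 8 of the 10 were highest in WT replicate 2 and 2 in WT replicate 3, while 5 were lowest in Sgo1-/+ replicate 3, 3 in Sgo1-/+ replicate 2 and 2 in WT replicate 1. All 10 markers were tested and lower on average in Sgo1-/+, against 50.2% of all genes. Their median log2 fold change was −1.17 (−1.72 without WT replicate 1). Of the 10, 0 had an unadjusted p-value under 0.05 in edgeR's quasi-likelihood test, against 2.04% of all genes. No olfactory bulb marker was at 0 in any library. In WT replicate 1 the olfactory bulb markers were low while Shisa8 was not, and the cerebellar markers given above were high. In the remaining libraries the summed olfactory bulb level and Shisa8 had the same order. Both fell from WT replicate 2 to WT replicate 3, and then through Sgo1-/+ replicates 1, 2 and 3. The part of olfactory bulb or cerebellar tissue in the Shisa8 values was not tested. In bulk RNA, fewer cells of a type and less RNA per cell cannot be told apart.

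**Figure D1:**
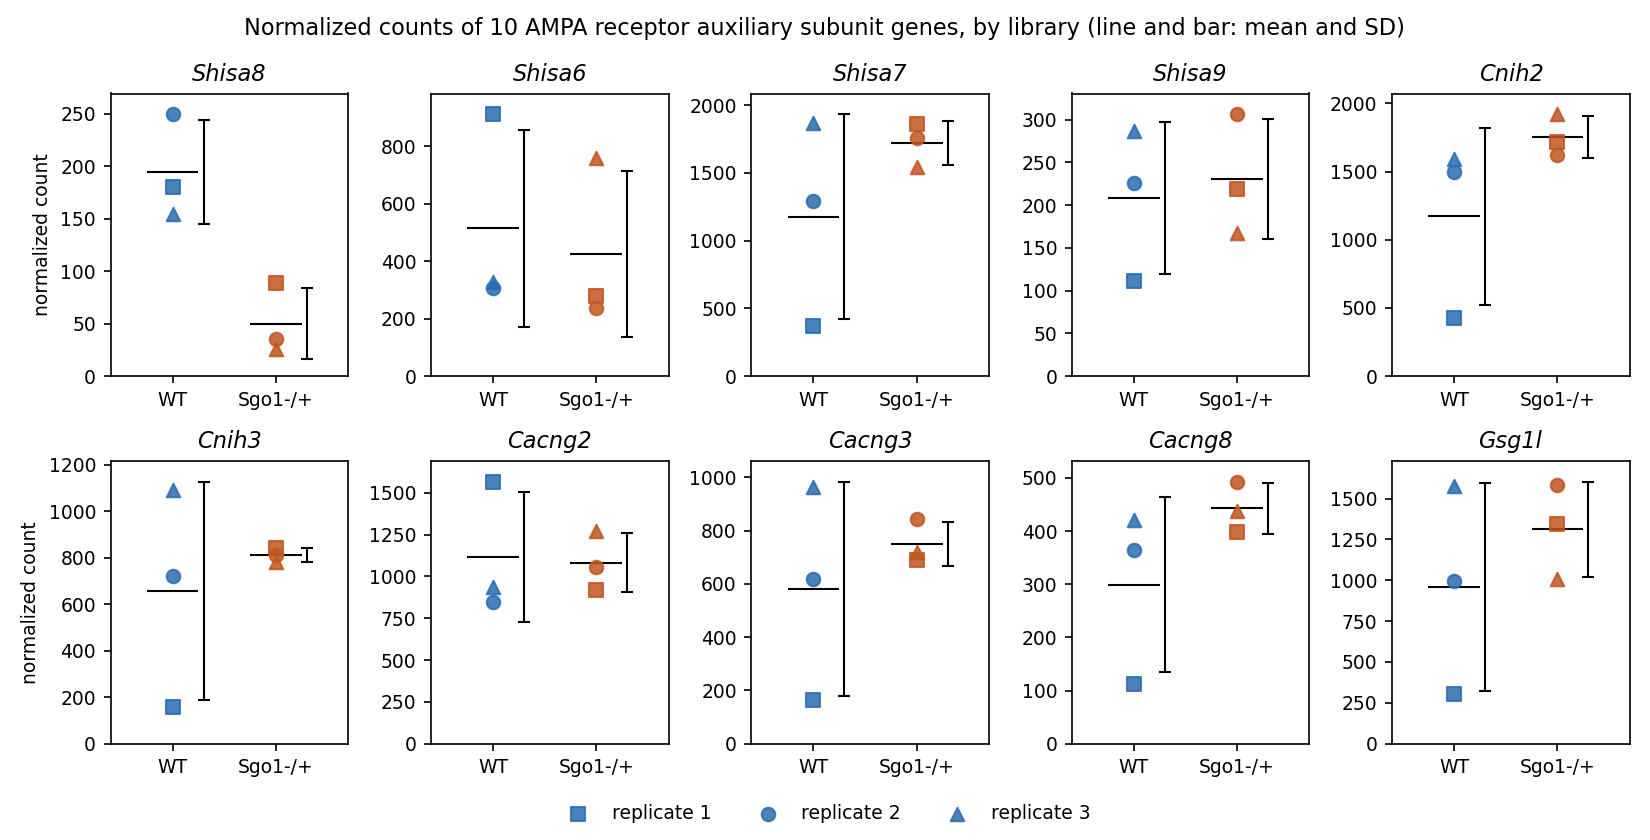
Normalized counts of each auxiliary subunit gene in every library (vertical axes start at 0), with the group mean as a line and the SD as a bar beside it; squares, circles and triangles are replicates 1, 2 and 3. The 3 Shisa8 points of Sgo1-/+ (25.6 to 88.4) sit below the WT points (154 to 249.5), while in 7 other genes WT replicate 1 is the lowest of the 6 libraries.

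The other CKAMP genes did not follow Shisa8. Shisa7, a CKAMP that also interacts with GABA-A receptors, had 371, 1289 and 1868 normalized counts in WT and 1862, 1756 and 1540 in Sgo1-/+. WT replicate 1 lay 4.74-fold under the median of the other 5 libraries, which otherwise overlapped between the groups. The log2 difference was 0.55 (SE 0.502; 95% interval −0.64 to 1.74), or 0.12 (SE 0.167) when WT replicate 1 was left out.

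Shisa9 (CKAMP44), which is known for slowing recovery from desensitization, had 112, 226 and 287 normalized counts in WT and 219, 306 and 168 in Sgo1-/+. The groups overlapped, with WT replicate 1 again lowest. The log2 difference of 0.15 (SE 0.370) turned to −0.15 (SE 0.255) when WT replicate 1 was left out.

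Shisa6 (CKAMP52), which is known to hold AMPA receptors at the synapse, was high in 1 library of each group. It had 911, 306 and 328 normalized counts in WT and 280, 239 and 758 in Sgo1-/+. WT replicate 1 and Sgo1-/+ replicate 3 stood above the other 4 libraries, which lay between 239 and 328. The log2 difference was −0.27 (SE 0.583). It turned to 0.43 (SE 0.465) without WT replicate 1 and stood at −0.99 without Sgo1-/+ replicate 3. In Sgo1-/+ replicate 3 the 6 hippocampus markers summed to 133 CPM, against 34.7 to 55.3 in the other libraries, and no marker of that list was at 0. The part of these markers in the Shisa6 values was not tested.

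Both cornichon genes were several-fold lower in WT replicate 1 than in any other library. Cnih2, the main cornichon of forebrain AMPA receptors, had 426, 1496 and 1595 normalized counts in WT and 1715, 1621 and 1919 in Sgo1-/+. Every Sgo1-/+ library was above every WT library, by a margin of 1621 against 1595 between the closest 2. Over all tested genes 3.24% showed such a separation upwards. The log2 difference was 0.58 (SE 0.442; 95% interval −0.47 to 1.63). Leaving out WT replicate 1 brought it to 0.18 (SE 0.107; −0.07 to 0.43).

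Cnih3 had 157, 722 and 1090 normalized counts in WT and 843, 810 and 781 in Sgo1-/+. The Sgo1-/+ libraries lay close together, within the span of WT replicates 2 and 3. Its log2 fold change of 0.31 (SE 0.578) became −0.16 (SE 0.169) without WT replicate 1.

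Among the TARPs, Cacng3 and Cacng8 followed the cornichons and Cacng2 did not. Cacng3 (TARP γ-3), a TARP of the cerebral cortex, had 163, 618 and 963 normalized counts in WT and 688, 842 and 718 in Sgo1-/+. The log2 difference of 0.37 (SE 0.539) turned to −0.08 (SE 0.192) when WT replicate 1 was left out. Cacng8 (TARP γ-8), abundant in the hippocampus, had 112, 364 and 421 normalized counts in WT and 397, 492 and 438 in Sgo1-/+. Its log2 fold change of 0.57 (SE 0.434) fell to 0.17 (SE 0.137) without WT replicate 1. For both genes WT replicate 1 was the lowest library and the other 5 overlapped between the groups.

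Cacng2 (stargazin, TARP γ-2) was highest in WT replicate 1. It had 1565, 849 and 934 normalized counts in WT and 921, 1056 and 1270 in Sgo1-/+, with means of 1116 ± 391 and 1082 ± 176 (SD, n = 3 each). The log2 difference was −0.04 (SE 0.252; 95% interval −0.64 to 0.55). It turned to 0.28 (SE 0.147; −0.06 to 0.62) when WT replicate 1 was left out. A noncoding gene on the opposite strand, A730060N03Rik, overlaps the exons of Cacng2, and the library kit named does not mark strand, so reads of the shared stretch cannot be told apart. A shorter exon overlap was found for Cnih2 with Yif1a and for Cacng8 with Gm23450.

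Gsg1l had 305, 998 and 1577 normalized counts in WT and 1345, 1584 and 1006 in Sgo1-/+. WT replicate 1 was 4.41-fold under the median of the other libraries. Its fitted log2 difference was 0.45 (SE 0.522), or 0.03 (SE 0.237) when WT replicate 1 was left out.

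Beside Shisa8, 0 of the 9 genes passed an adjusted p-value of 0.05 in the quasi-likelihood test of edgeR (Benjamini-Hochberg over all genes), against 0% of all genes, and each had an adjusted p-value of 0.9999. Before adjustment 0 of the 9 were under 0.05, against 2.04% of all 16337 genes (1.23% lower and 0.808% higher in Sgo1-/+), and the smallest unadjusted p-value in this edgeR test was 0.232 (Cnih2). DESeq2's Wald test and limma also gave 0 of the 9 past the adjusted threshold. The median log2 fold change of the 9 was 0.37, beside −0.00069 over all tested genes, and 0.12 without WT replicate 1. With all libraries 7 of the 9 were higher and 2 lower in Sgo1-/+, against 50.2% lower over all genes. Without WT replicate 1, 6 of the 9 were higher and 3 lower in Sgo1-/+, with log2 fold changes between −0.16 and 0.43, and 0 had an unadjusted p-value under 0.05, against 3.77% of all genes. The 95% intervals of the fit without WT replicate 1 include 0 for each of the 9; they are widest for Shisa6 (−0.66 to 1.52) and narrowest for Cnih2 (−0.07 to 0.43). Leaving out WT replicate 3 instead moved the values up, to 1.05 for Shisa7, 0.45 for Shisa9, 0.87 for Cnih2, 0.88 for Cnih3, 0.94 for Cacng3, 0.90 for Cacng8 and 1.01 for Gsg1l, and each adjusted p-value in edgeR's test was then at least 0.7635.

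**Figure D2:**
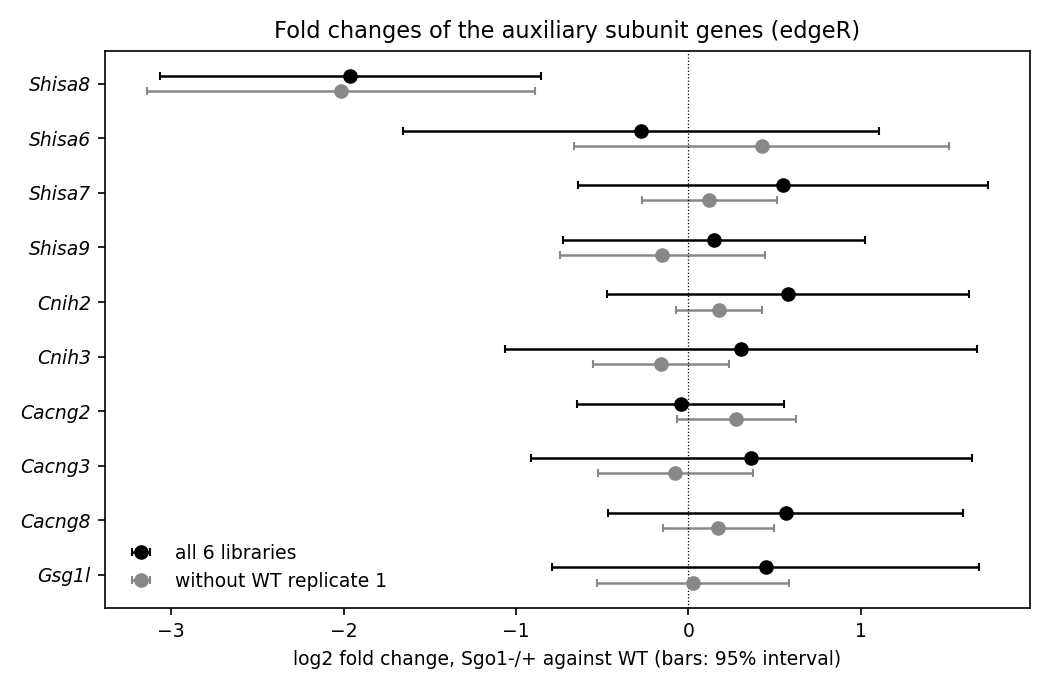
Log2 fold change of each gene for Sgo1-/+ against WT (horizontal axis) with its 95% interval from edgeR's quasi-likelihood fit, with all 6 libraries (black) and without WT replicate 1 (grey). Shisa8 (chosen on this contrast) is at −1.96 and −2.01, and the intervals of the other 9 genes include 0 in both fits and are narrower without WT replicate 1.

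The 10 genes fell into separate sets in WT replicate 1. It was the lowest library for 7 of them, against 30.4% of all tested genes. In that library 6 genes (Shisa7, Cnih2, Cnih3, Cacng3, Cacng8 and Gsg1l) had under 50% of the lowest count of the other 5 libraries, against 4.73% of all tested genes. Relative to the median of the other 5, they were between 3.77-fold (Cacng8) and 5.15-fold (Cnih3) lower. Shisa9 was 2.02-fold lower. Shisa6 and Cacng2 were highest in that library, 2.98-fold and 1.68-fold above the median of the other 5. Shisa8 was 2.04-fold above that median, and of the 5 only WT replicate 2 was higher. The regional markers of that library are given above, and their part in this split was not tested.

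**Figure D3:**
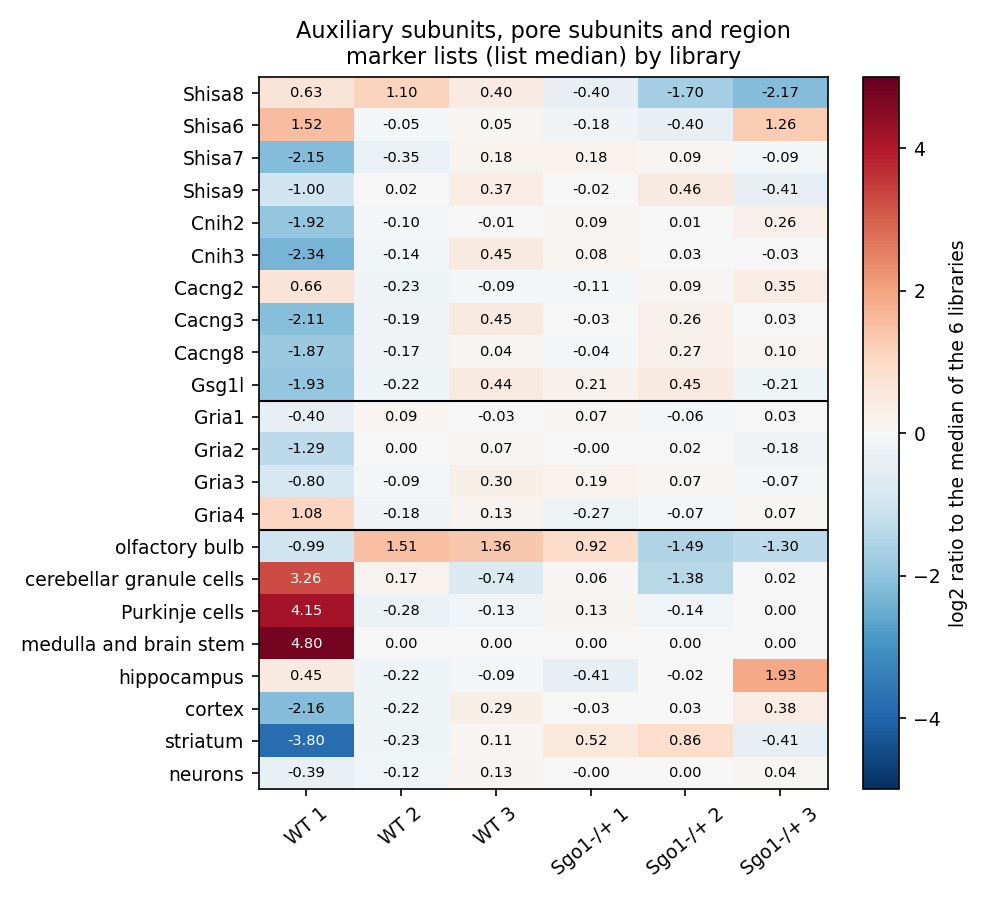
Log2 ratio of each library to the median of the 6 libraries for the 10 auxiliary subunit genes, for the pore subunits Gria1 to Gria4 and, as the median over each list, for the regional marker lists; red is higher and blue lower. In WT replicate 1, 6 auxiliary subunit genes lie between −2.34 and −1.87, beside −2.16 for the cortex list, −3.80 for striatum, 3.26 for cerebellar granule cells, 4.15 for Purkinje cells and 4.80 for medulla and brain stem. The last value rests partly on the floor of 0.25 CPM, since 7 of those 11 markers were at 0 in Sgo1-/+ replicate 2.

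Levels were compared between genes as RPKM (reads scaled to exon length and to TMM-scaled library size). In Sgo1-/+, Cnih2 was the most abundant of the 10 transcripts at 114.9 ± 10 RPKM, followed by Cacng3 at 40.8 ± 4.44 (SD, n = 3 each). Gsg1l (27.7 ± 6.14), Cnih3 (24.4 ± 0.945), Shisa7 (21.5 ± 2.05) and Cacng8 (20.1 ± 2.16) came next, then Cacng2 (16.3 ± 2.65) and Shisa9 (11.4 ± 3.46). Shisa6 (4.74 ± 3.21) and Shisa8 (2.07 ± 1.39) were lowest. The libraries of adjacent genes did not overlap for Cnih2 and Cacng3, Cacng3 and Gsg1l, or Cnih3 and Shisa7, and overlapped for the other 6 neighbouring pairs.

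In WT the same gene led, with Cnih2 at 76.9 ± 42.5 RPKM and Cacng3 at 31.6 ± 21.8 (SD, n = 3 each). Shisa8, at 8.09 ± 2.04 RPKM, ranked above Shisa6 (5.73 ± 3.82), the reverse of Sgo1-/+, and the ranges of both genes overlapped in each group. All 9 neighbouring pairs overlapped in WT. In WT replicate 1 the order differed from the other libraries: Cacng2 ranked 2 at 23.5 RPKM, Shisa6 ranked 3 at 10.1, Shisa8 ranked 5 at 7.51, and Shisa7 was last at 4.62. Cnih2 was first in each of the 6 libraries. These levels depend on the gene length, and with the longest single transcript of the newer annotation in place of the exons within the deposited gene limits, Shisa9 fell to 4.42 and Cacng3 to 22.4 RPKM in Sgo1-/+. Cacng3 then ranked 5 in Sgo1-/+, below Gsg1l (27.7), Cnih3 (25.2) and Shisa7 (23.7), and its libraries (20.5 to 25.1) overlapped with those of Gsg1l (21.2 to 33.4). The separation of Cnih3 from Shisa7 was also lost, and Shisa9 ranked below Shisa6 (4.87) in Sgo1-/+ and was last in WT. Cnih2 at rank 1 and Shisa8 at rank 10 in Sgo1-/+ were the same with either length. Shisa8 was chosen for its low counts in these Sgo1-/+ libraries. Nothing is therefore read from its rank there or from its order with Shisa6.

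**Figure D4:**
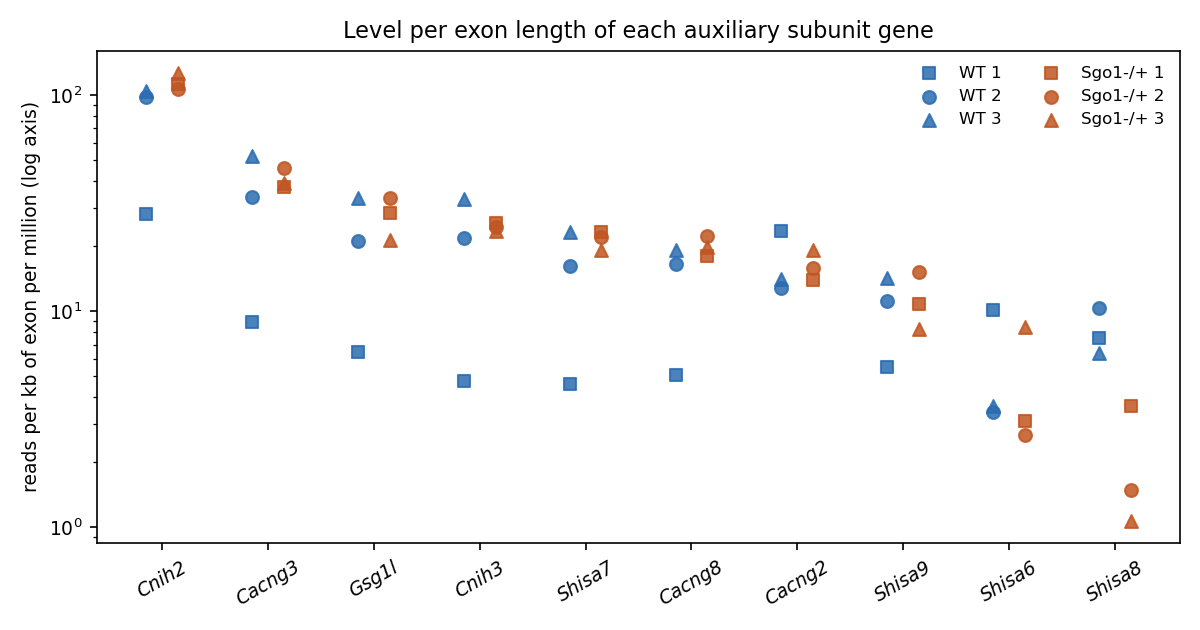
Level per exon length of each gene in every library (log axis), ordered by the Sgo1-/+ mean, with WT in blue and Sgo1-/+ in orange. Cnih2 is highest in each library, and Shisa8 (chosen for its low counts in Sgo1-/+) in Sgo1-/+ replicates 2 and 3 (1.49 and 1.07 RPKM) is the lowest value plotted.

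The make-up of each family was also taken per library, as a share of the summed RPKM of its members. Shisa8 made up 27.04, 25.3 and 13.46% of the 4 CKAMP transcripts across WT replicates 1 to 3, against 8.96, 3.61 and 2.90% across Sgo1-/+ replicates 1 to 3, which did not overlap. Shisa7 made up 16.6, 39.2 and 49.0% in WT and 56.9, 53.2 and 51.9% in Sgo1-/+. With the longest transcript of the newer annotation Shisa7 held 21.8, 52.95 and 64.5% in WT and 71.6, 71.3 and 62.6% in Sgo1-/+. The groups then overlapped. The CKAMP sum includes Shisa8, which was chosen for its low counts in Sgo1-/+. A lower Shisa8 raises the Shisa7 share, so nothing is read from the Shisa7 separation with the first length. Shisa6 held 36.5% of the CKAMP sum in WT replicate 1 and 22.8% in Sgo1-/+ replicate 3, against 6.47 to 8.30% in the other libraries. Shisa9 held between 19.8 and 36.7% throughout. The Shisa9 share depended on the gene length: with the longest transcript of the newer annotation it was 9.10 to 17.2%, while Shisa8 held 24.7, 23.8 and 12.3% in WT and 7.84, 3.37 and 2.44% in Sgo1-/+, which again did not overlap. Both lengths use the same Shisa8 counts, on which the gene was chosen, so nothing is read from either separation.

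The TARP sum holds only the 3 members Cacng2, Cacng3 and Cacng8. It leaves out Cacng4, Cacng5 and Cacng7, of which Cacng7 had 59.2 to 72.4 RPKM over the libraries. Of this sum, Cacng2 made up 62.8% in WT replicate 1. The Cacng2 share was 16.4 to 24.5% elsewhere, where Cacng3 led the 3 with 50.1 to 61.3%. Cacng8 held 13.52% in WT replicate 1 and 22.3 to 26.6% elsewhere. These shares depended on the gene length. With the longest transcript of the newer annotation Cacng2 made up 70.7% in WT replicate 1. Cacng3 then led elsewhere with 35.9 to 47.0%. The ratio of Cnih2 to Cnih3 varied less, with Cnih1 (36.1 to 41.2 RPKM) left out of the cornichon sum. Cnih2 held 76.1 to 85.5% of the 2 cornichon transcripts in all 6 libraries, with 81.2 ± 4.74% in WT and 82.4 ± 1.62% in Sgo1-/+ (SD, n = 3 each). In WT replicate 1, where both cornichons were low, Cnih2 held 85.5%, the highest share of the 6.

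**Figure D5:**
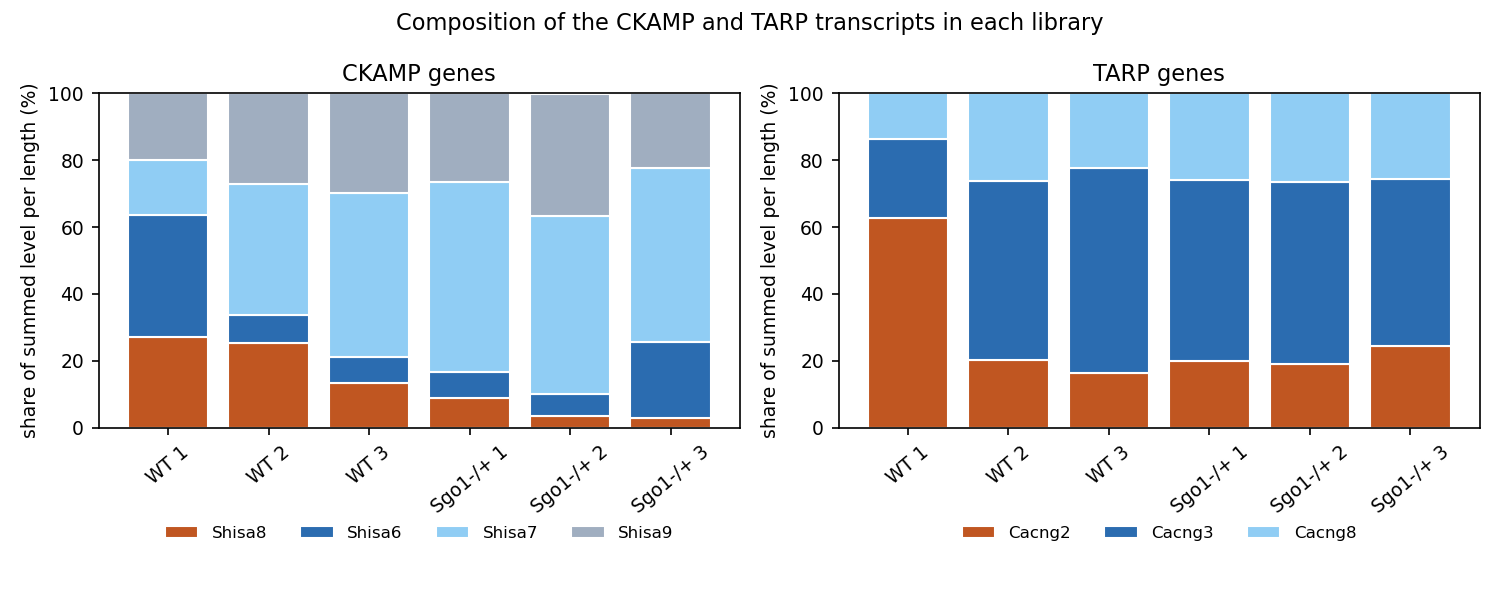
Share of each gene (%) in the summed level per exon length of the CKAMP genes (left) and of the 3 TARP members (right, without Cacng4, Cacng5 and Cacng7), 1 bar per library. Shisa8 (chosen on this contrast) takes 13.46 to 27.04% of the CKAMP sum in WT and 2.90 to 8.96% in Sgo1-/+, and Cacng2 takes 62.8% of the TARP sum in WT replicate 1 alone.

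The pore subunits also differed in WT replicate 1. Gria2, the subunit that makes the channel impermeable to calcium, had 3535 normalized counts there, while the other 5 lay between 7625 and 9089. Gria4, a subunit known from cerebellar and other fast-signalling neurons, had 3235 there and between 1264 and 1674 elsewhere. Gria1 and Gria3 were lowest in that library, at 4138 and 1825. The log2 fold changes of Gria1 to Gria4 were 0.11, 0.24, 0.20 and −0.54 (SE 0.154 to 0.338), and 0 of the 4 had an adjusted or unadjusted p-value under 0.05 in edgeR's quasi-likelihood test, against 0% and 2.04% of all genes. Their median of 0.16 became −0.06 without WT replicate 1.

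Of 15 relatives of the members in the Shisa, TARP, cornichon and GSG1 families, 10 passed the filter on low counts and Cacng1, Cacng6, Gsg1, Shisal2a and Shisal2b did not. One of the 10 had an unadjusted p-value under 0.05, in the lower direction, in which 1.23% of all genes were called, and 0 passed after adjustment in edgeR's quasi-likelihood test. It was Cacng5 (TARP γ-5), a type II TARP, with 376, 634 and 465 normalized counts in WT and 362, 245 and 236 in Sgo1-/+. The groups did not overlap, as in 3.57% of all genes with Sgo1-/+ lower, though WT replicate 1 and Sgo1-/+ replicate 1 lay close together. For Cacng5 the log2 difference was −0.81 (SE 0.249; adjusted p-value 0.9999 in edgeR's test), or −0.97 (SE 0.218) when WT replicate 1 was left out.

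The other listed TARPs gave smaller differences than Cacng5. Cacng7, the most abundant TARP transcript at 70.2 ± 1.66 RPKM in WT and 67.4 ± 7.16 in Sgo1-/+ (SD, n = 3 each), had a log2 fold change of −0.06 (SE 0.115; 95% interval −0.33 to 0.21). Cacng4 had 0.28 (SE 0.237). Cnih1, a general export cargo receptor, had −0.04 (SE 0.0978; −0.27 to 0.19) and 39.4 ± 1.80 against 38.3 ± 1.90 RPKM (SD, n = 3 each). It had 799.6 normalized counts in WT replicate 1, where Cnih2 and Cnih3 were low, against 700.1 to 765.3 elsewhere.

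Of 27 partners of the AMPA receptor in assembly, scaffolding and clustering, all were tested, 21 had a positive and 6 a negative fitted log2 fold change (50.2% of all genes were lower), and the median was 0.12 (0.03 without WT replicate 1). One, Grip2, had an unadjusted p-value under 0.05 in edgeR's quasi-likelihood test, against 2.04% of all genes, and 0 passed after adjustment, against 0%. Grip2, a PDZ scaffold that binds Gria2 and Gria3, had 442, 538 and 551 normalized counts in WT and 402, 360 and 381 in Sgo1-/+, groups that did not overlap, as in 3.57% of all genes with Sgo1-/+ lower. For Grip2 the log2 difference was −0.42 (SE 0.127; adjusted p-value 0.9999 in edgeR's test), or −0.52 (SE 0.108) when WT replicate 1 was left out. Frrs1l, which acts in the early assembly of the receptor, had a log2 fold change of 0.15 (SE 0.217), at 52.1 ± 15.7 RPKM in WT and 57.8 ± 4.76 in Sgo1-/+ (SD, n = 3 each).

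Likeness to Shisa8 was measured by the Euclidean distance between log2 CPM profiles over the 6 libraries, each centred on its mean. The 8 nearest genes of the 16336 others were Crabp2 (0.830), Cbr2 (0.951), Slc47a1 (0.978), Rd3 (1.02), Ly6g6e (1.03), Eya2 (1.05), Gbp10 (1.06) and Ppm1j (1.10). Their counts were low, between 2.05 and 78.6 normalized counts, and none is on a marker list used here. Crabp2, the nearest, had 56.4, 39.99 and 28.4 normalized counts in WT and 25.8, 6.08 and 4.09 in Sgo1-/+. The 9 other auxiliary subunit genes were farther, from 3.15 for Cacng2 to 4.19 for Cnih3. Among themselves, Cnih3 and Cacng3 (0.324), Cnih2 and Cacng8 (0.344) and Shisa7 and Cacng3 (0.368) were closest, and each of these genes was low in WT replicate 1. Shisa6 and Cacng2 (1.21) were each other's nearest member. Shisa8 was the farthest member for 8 of the 9, and Cnih3 for Shisa6. Since Shisa8 was chosen for its difference between these same libraries, nothing is read from its distances or from its nearest genes.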

How the data were processed

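Brain RNA of 3 WT and 3 Sgo1-/+ mice was sequenced on a MiSeq after a TruSeq V2 preparation, which does not mark strand. Alignment was to mm10 in Strand NGS, and the authors deposited an estimated count per gene and library; the submitters' processing notes also name BWA and edgeR, without a role. The gene annotation release is not given in the sources used here. The authors' deposited log2 values (DESeq-normalized, centred on each gene's median) and their comparison columns (log2 fold change, signed score and ratio) were not used for results. Columns numbered 1 to 6 were taken as WT 1 to 3 and Sgo1-/+ 1 to 3; the authors' log2 fold change is the WT minus the Sgo1-/+ mean of these columns to within 2.9e-07.

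Estimated counts were rounded to whole numbers and compared with edgeR 4.0.16 (TMM, default filter on low counts, 16337 genes, quasi-likelihood test, no covariate, Benjamini-Hochberg adjustment over all genes). The SE is the log2 fold change divided by the square root of F. The labels give each sample its own animal number. RPKM used exons of GENCODE M21 (mm10) within the gene limits of the deposited table; gene IDs matched 36308 of 38087. In ratios of marker lists, CPM values under the floor of 0.25 (about 3 counts) were set to it. One cortex marker of 10, Cux2, was not matched by symbol. Named genes were the 10 members, the pore subunits, listed relatives and partners with an unadjusted p-value under 0.05, also Cacng4, Cacng5, Cacng7, Cnih1 and Frrs1l whatever their values, and the 8 nearest profiles. Members, lists and tests were chosen with earlier results of these data known. Total counts of 11123917 to 12505561 limit low genes. Tests were checked on simulated counts. These varied less between libraries than the data (biological coefficient of variation 25.9%), and no simulated library stood apart. The check therefore does not show what the tests could find here. Alternatives were DESeq2 1.42.0, limma 3.58.1 (DESeq-normalized counts, log2 after adding 1), size factors of DESeq2, no filter, sex as a covariate, a minimum of 10 counts per library, a block for the replicate number, leaving out each library, and other gene lengths, of which the full exons of the newer annotation, and any other length for family shares, were chosen after seeing the data.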

Additional observations from a re-analysis of the deposited data

How the results depend on the processing

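Shisa8 stayed lower in Sgo1-/+ under all 13 alternatives, and leaving out 1 library moved its log2 fold change between −2.67 (without Sgo1-/+ replicate 1) and −1.65 (without Sgo1-/+ replicate 3). Shisa8 was chosen on this contrast and its groups did not overlap, so nothing is read from its kept direction. For the 9 other members, 107 of 117 alternative values kept their direction, 10 turned, and 0 reached an adjusted p-value under 0.05 (smallest 0.7635, edgeR). Cacng2, near 0 with all libraries, turned to 0.0092 with sex as a covariate. Leaving out 1 library gave log2 fold changes of −0.99 to 0.43 for Shisa6, −0.15 to 0.45 for Shisa9, −0.16 to 0.88 for Cnih3, −0.21 to 0.28 for Cacng2 and −0.076 to 0.94 for Cacng3. The range was 0.12 to 1.05 for Shisa7, 0.18 to 0.87 for Cnih2, 0.17 to 0.90 for Cacng8 and 0.03 to 1.01 for Gsg1l, lowest without WT replicate 1 and highest without WT replicate 3. The lowest of Shisa9, Cnih3 and Cacng3 and the highest of Shisa6 and Cacng2 came without WT replicate 1. Over all genes, DESeq2 gave 3 with an adjusted p-value under 0.05 in place of 0, and leaving out 1 library gave 0 to 1. Unadjusted p-values under 0.05 numbered 563 without a filter in place of 333, and 240 to 1040 with 1 library left out. Among family relatives 2 in place of 1 were under 0.05 unadjusted with DESeq2, with its size factors, without a filter, with at least 10 counts in every library and with sex as a covariate, and 0 to 2 with 1 library left out. For pore subunits the count was 0 to 1 and for receptor partners 1 to 7 with 1 library left out, the 7 without WT replicate 3. The cause of these changes was not tested.

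Replicate numbers did not pair the samples: the correlations of same-numbered samples' deviations were −0.146, 0.014 and −0.207. With the replicate number as a block, 280 genes in place of 333 had an unadjusted p-value under 0.05, 3 receptor partners in place of 1, and Cacng2 turned to 0.00057. Library totals of 11123917 to 12505561 limit low genes such as Shisa8 in Sgo1-/+.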

Other observations

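Shisa3, a member of the Shisa family that is not counted among the AMPA receptor auxiliary subunits, was chosen with its values in view. It had 34.2, 257 and 180 normalized counts across WT replicates 1 to 3, against 75.5, 12.2 and 30.7 across Sgo1-/+ replicates 1 to 3, so the groups overlapped through WT replicate 1. The log2 difference was −1.99 (SE 0.839; adjusted p-value 0.9999, edgeR), or −2.46 (SE 0.570) when WT replicate 1 was left out. The olfactory bulb marker Eomes had 83.6, 238 and 150 normalized counts in WT and 90.4, 8.11 and 4.09 in Sgo1-/+, and Cdhr1, a marker of mitral and tufted cells, had 44.3, 890 and 768 in WT and 432, 122 and 29.7 in Sgo1-/+. Prrt2, a presynaptic protein that also associates with AMPA receptors, had 1247 and 1317 normalized counts in WT replicate 3 and Sgo1-/+ replicate 3, while the other 4 libraries lay between 269 and 424. Prrt2, Eomes and Cdhr1 were also chosen with their values in view.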
